A study of Mus musculus with 2 samples.

Results

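Ascl2, Gjb5, Plac1, Vgll1, Olr1, Prl3d1, Rhobtb3, Tpbpa and Gcm1 are 9 genes used as marks of the ectoplacental cone and of trophoblast giant cells, and all 9 were found by symbol among 32285 gene features. They were followed in nuclei of mouse embryos at embryonic day 7.0, in which RNA and open chromatin were read from the same nuclei. Of 229480 accessible regions (peaks), 131 lay within 50 kb of the starts of these genes. Each of the 2 assays was represented by 1 library made from nuclei of pooled embryos that had been dissociated with TrypLE, so there was no replicate of either, and no treatment or genotype was compared. The title, age and protocol name embryos at E7.0, while other label fields name the small intestine or distal colon, goblet cells and the strain RedMUC298trTg. Of 8 goblet and intestinal markers, 5 (Muc2, Tff3, Spink4, Clca1 and Krt20) were at 0 unique molecular identifiers (UMIs, 1 per captured transcript) in the cone-like nuclei described here, and none of the 8 was at 0 over all nuclei outside trophoblast. The list summed to 14.3 counts scaled to the class total (CPM) in cone-like, 8.77 in extraembryonic ectoderm-like and 33.6 in non-trophoblast nuclei. In cone-like nuclei that sum lay in Fcgbp, Vil1 and Lgals4, and 3 UMIs of a gene would be 1.39 CPM there.

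Around implantation the trophoblast of the mouse forms the extraembryonic ectoderm, which keeps stem cells next to the epiblast, and the ectoplacental cone, which grows into the uterine wall. Giant cells arise at the outer border of the cone and from the wall of the blastocyst, copy their DNA without dividing and secrete hormones of the prolactin family. Ascl2 is an imprinted helix-loop-helix factor of the cone and of the later spongiotrophoblast, and Vgll1 is a cofactor of TEAD factors. Gjb5 is a gap junction protein, Plac1 an X-linked placental surface protein, and Olr1 a receptor for oxidised lipoprotein. Prl3d1 encodes placental lactogen I, the hormone of early giant cells. Tpbpa marks cone and spongiotrophoblast cells, Gcm1 is the factor that starts syncytiotrophoblast formation from the chorion, and Rhobtb3 is a protein with BTB domains.

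The genes lie on 6 chromosomes of the mm10 build (GRCm38.p6 in RefSeq). Ascl2 (ENSMUSG00000009248) spans chr7:142966822-142969264 on the minus strand. Gjb5 (ENSMUSG00000042357) spans chr4:127354809-127358164 on the minus strand. Plac1 (ENSMUSG00000061082) spans chrX:53069993-53240110 on the minus strand, with starts at 53240111 and 53114530. Vgll1 (ENSMUSG00000031131) spans chrX:57088106-57106540 on the plus strand, with a second listed start at 57089374. Olr1 (ENSMUSG00000030162) spans chr6:129479150-129507350 on the minus strand, Rhobtb3 (ENSMUSG00000021589) chr13:75869537-75943824 on the minus strand, and Gcm1 (ENSMUSG00000023333) chr9:78051958-78065624 on the plus strand. Prl3d1 (ENSMUSG00000057170) spans chr13:27094189-27100260 on the plus strand near its close copy Prl3d2, and Tpbpa (ENSMUSG00000033834) spans chr13:60938492-60941936 on the minus strand near its relative Tpbpb.

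The 250 bases before a transcript start in RefSeq are shown for 5 members, to set side by side genes with a promoter peak (Ascl2, Gjb5), a gene whose promoter peak lies further downstream (Vgll1) and genes with none (Olr1, Prl3d1). All read 5′ to 3′ on the strand of the gene. For Olr1 the start used is 129507165, which lies inside the RefSeq span of the gene (to 129507350), so part of its window is within that span. Capitals mark matches, on either strand, to 6 short motifs. These were GGAATG for TEAD factors, CAGCTG as an E-box, AGATAA for factors of the GATA family, GCCNNNGGC for AP-2, TGANTCA for AP-1 and ATGCGGG for GCM factors.
Ascl2, chr7:142969265-142969514: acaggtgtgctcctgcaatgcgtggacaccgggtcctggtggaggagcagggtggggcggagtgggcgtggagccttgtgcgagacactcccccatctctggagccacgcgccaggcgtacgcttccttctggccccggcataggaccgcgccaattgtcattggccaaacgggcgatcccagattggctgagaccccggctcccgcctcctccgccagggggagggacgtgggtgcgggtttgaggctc
Gjb5, chr4:127358165-127358414: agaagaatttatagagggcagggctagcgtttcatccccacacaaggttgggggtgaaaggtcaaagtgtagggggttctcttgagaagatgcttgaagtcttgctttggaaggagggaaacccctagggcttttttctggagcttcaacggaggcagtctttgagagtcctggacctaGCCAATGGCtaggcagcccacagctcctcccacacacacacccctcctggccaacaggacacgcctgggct
Vgll1, chrX:57087856-57088105: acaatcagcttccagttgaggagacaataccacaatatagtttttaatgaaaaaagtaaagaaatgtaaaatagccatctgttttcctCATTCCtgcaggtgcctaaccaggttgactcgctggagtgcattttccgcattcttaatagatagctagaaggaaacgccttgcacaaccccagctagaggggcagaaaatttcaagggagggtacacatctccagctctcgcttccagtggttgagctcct
Olr1, chr6:129507166-129507415: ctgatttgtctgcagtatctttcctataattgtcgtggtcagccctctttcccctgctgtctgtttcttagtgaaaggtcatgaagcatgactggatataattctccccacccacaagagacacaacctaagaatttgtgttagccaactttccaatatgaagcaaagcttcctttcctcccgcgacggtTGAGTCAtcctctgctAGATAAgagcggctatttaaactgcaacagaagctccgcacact
Prl3d1, chr13:27093939-27094188: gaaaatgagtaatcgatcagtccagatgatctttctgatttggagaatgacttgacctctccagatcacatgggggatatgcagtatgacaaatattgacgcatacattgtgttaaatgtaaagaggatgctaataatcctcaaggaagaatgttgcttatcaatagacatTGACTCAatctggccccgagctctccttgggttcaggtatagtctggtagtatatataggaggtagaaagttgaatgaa
The Vgll1 window held a TEAD match 162 to 157 bases before the start, and 12.6% of 32851 promoters held one. An AP-2 match lay 71 to 63 bases before the Gjb5 start (13.7% of all promoters). Olr1 had a GATA match 44 to 39 bases and an AP-1 match 60 to 54 bases before the start at 129507165, and Prl3d1 had an AP-1 match 79 to 73 bases before its start, against 9.99% of all promoters with GATA and 6.75% with AP-1. Ascl2 had no match to the 6 motifs and a GC content of 67.6%, while Prl3d1 had 39.2% (median of all promoters, 52.4%). A match describes letters in this window and shows no binding.

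Of 15341 deposited barcodes, 12796 nuclei passed the filters, with a median of 10471 UMIs. So that a gene's own signal did not choose the nuclei in which it was read, RNA was read in classes made from accessibility, without the peaks near the 9 genes, and accessibility was read in classes made from RNA, without the 9 genes. Classes were named from marker lists that hold none of the 9. By accessibility 1588 nuclei (12.4%) were trophoblast: 1215 extraembryonic ectoderm-like nuclei, 121 ectoplacental cone and giant cell-like nuclei (cone-like from here on), and 252 nuclei of a trophoblast cluster that was left unnamed. That cluster had 7 raised markers of the extraembryonic ectoderm list, which scored highest, and 5 of the cone list. Of its 10 leading genes, however, none was an extraembryonic ectoderm marker and 1 was a cone marker. The cone-like cluster had 8 raised markers of the cone list and 5 of the extraembryonic ectoderm list. Of its own 10 leading genes 1 was a cone marker, Adm, and Cdh5 was a marker of endothelium. Adm and the leading Prl3d3, Prl3d2 and Prl7a1 lay mostly in a few nuclei rich in Prl3d1, described further on. The cone-like class grew to 206 nuclei with called doublets kept and to 174 with coarser clusters. The other 11208 nuclei were epiblast-like, mesoderm-like and endoderm-like, embryonic and extraembryonic, or unnamed. Median depth was 14030 UMIs in cone-like, 12767 in extraembryonic ectoderm-like, 9131 in the unnamed trophoblast and 10246.5 in the other nuclei. In estimated fragments the unnamed trophoblast cluster stood apart, at a median of 1373 against 9649 in cone-like and 9369 in extraembryonic ectoderm-like nuclei, and the part of this depth in its values was not tested. By RNA, 118 of the 121 cone-like nuclei were again cone-like, as were 252 (20.7%) of the 1215 extraembryonic ectoderm-like nuclei. Levels are in CPM, the UMIs or estimated fragments of a feature scaled by the total of its class, a gene is compared only with itself, and ranges in parentheses are exact 95% intervals (Poisson for levels and ratios, Clopper-Pearson for shares) that cover counting error only. With 1 library per assay no test was possible. A value is called higher or lower where its ratio was at least 2 in either direction, the interval left out 1 and at least 20 counts were present.

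In trophoblast nuclei 6 of the 9 genes had higher RNA than in all other nuclei, 1 was lower, 1 was neither and 1 was almost absent. Vgll1 and Olr1 had the steepest ratios, 45.8 (26.7 to 84.4) and 68.3 (33.3 to 163), or 27.9 and 44.7 with called doublets kept. Vgll1 stood at 5.56 CPM against 0.121 (122 and 15 UMIs), and Olr1 at 4.42 against 0.0647 (97 and 8 UMIs). Both were close to absent outside trophoblast. Ascl2 stood at 44.3 CPM (41.5 to 47.1) against 2.88, a ratio of 15.4 (13.6 to 17.4). Gjb5 stood at 106 CPM against 6.72, a ratio of 15.7 (14.5 to 17.1). Prl3d1, at 52.1 against 3.27 CPM, had a ratio of 16.0 (14.2 to 17.9), which rested on a few nuclei described further on. Plac1 had the smallest called rise, 5.20-fold (4.85 to 5.57), with 13.8 CPM in other nuclei. Among all genes, 7.79% of the 19877 tested were called higher and 23.6% lower. The median log2 ratio was 3.96 over the 8 members tested and -0.20 over all genes.

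Rhobtb3 went the other way. It had 11.4 CPM in trophoblast and 84.0 in the other nuclei, 7.35-fold lower (6.48 to 8.36). With called doublets kept the ratio was 0.237 in place of 0.136. A UMI of it was seen in 13.0% of trophoblast and 47.5% of other nuclei. Its level was 134 CPM in embryonic mesoderm-like, 131 in extraembryonic mesoderm-like, 118 in primitive streak-like and 95.7 in epiblast-like nuclei. Of the 14 clusters of other nuclei the lowest were visceral endoderm-like nuclei (14.2 CPM), an unnamed cluster of 588 nuclei (15.02 CPM), parietal endoderm-like nuclei (19.3 CPM) and a cluster of 466 nuclei led by genes such as Gckr, Fzd5, Foxq1 and Sfrp5 (29.6 CPM). Rhobtb3 was thus low in trophoblast, although it is grouped with cone and giant cell genes. Gcm1 had 30 UMIs in trophoblast and 100 elsewhere, a ratio of 1.69 (1.09 to 2.56) that was not called. Tpbpa had 1 UMI in all, in a cone-like nucleus, and 0 UMIs in the 11208 other nuclei, where 3 UMIs would be 0.0242 CPM, so no difference was detectable at this depth.

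**Figure D1:**
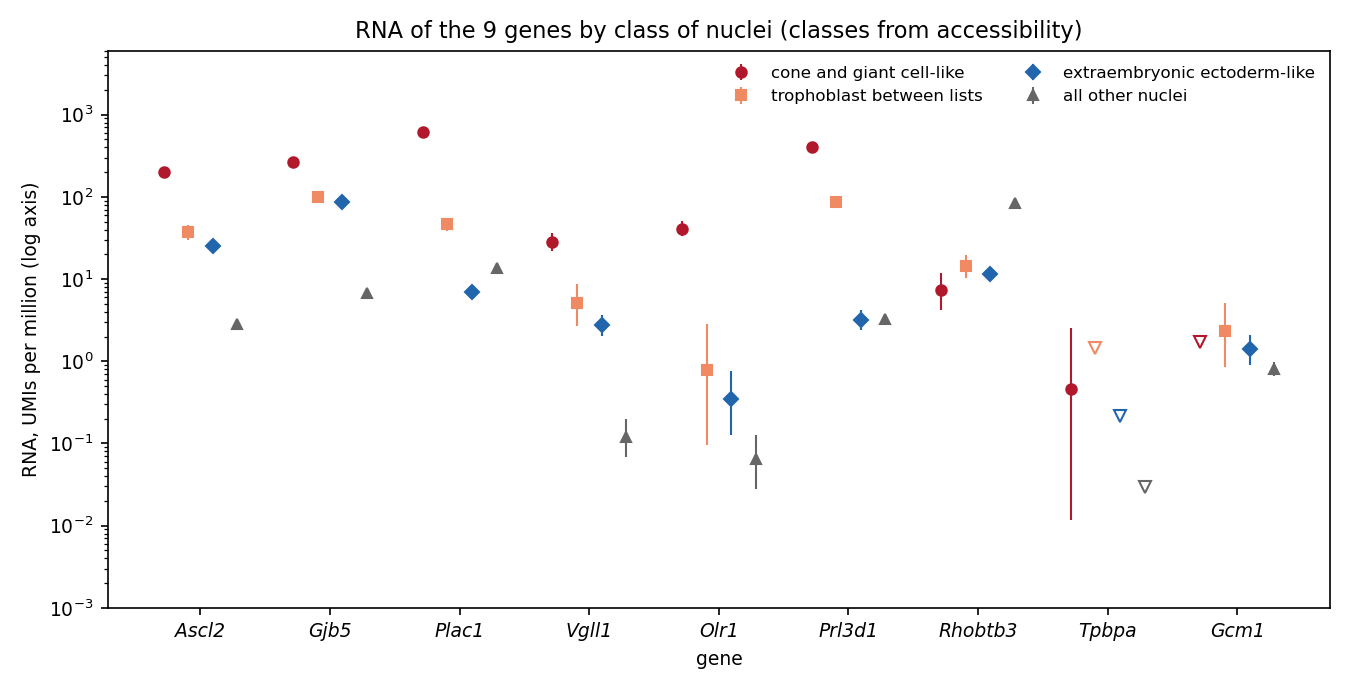
RNA of the 9 genes (CPM, log axis) in cone-like, unnamed trophoblast (trophoblast between lists), extraembryonic ectoderm-like and all other nuclei. Points are class levels, bars exact 95% Poisson intervals and open triangles the upper end of the 95% interval of a class with 0 UMIs. Plac1 runs from 616 in cone-like to 6.91 in extraembryonic ectoderm-like nuclei, and Rhobtb3 is highest in the other nuclei.

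Within trophoblast the same 6 genes were higher in cone-like than in extraembryonic ectoderm-like nuclei, and none of the 8 tested was lower. Across all 14059 genes tested, 6.34% were higher and 7.08% lower. The members' median log2 ratio was 3.39 over 7 with a ratio, 3.20 with Gcm1 put at its bound, and -0.00 over all genes. Plac1 was at 616 CPM (583 to 650) in cone-like and 6.91 (5.72 to 8.27) in extraembryonic ectoderm-like nuclei, a ratio of 89.2 (73.9 to 109). Its level in the other nuclei, 13.8 CPM, lay above that of the extraembryonic ectoderm-like nuclei. Ascl2 was at 203 CPM (185 to 223) against 25.4 (23.0 to 27.9), a ratio of 8.02 (7.01 to 9.17). Gjb5 differed least of the 6, 269 CPM (247 to 291) against 86.0 (81.7 to 90.5), a ratio of 3.12 (2.83 to 3.44). Both genes were also well above the other nuclei in extraembryonic ectoderm-like nuclei. Vgll1 was at 28.7 against 2.73 CPM, a ratio of 10.5 (7.07 to 15.7), or 15.9 with coarser clusters. Olr1 was at 41.1 against 0.348 CPM, 89 and 6 UMIs, a ratio of 118 (52.2 to 330), or 76.9 with coarser clusters. Gcm1 had 0 UMIs in the 121 cone-like nuclei, where 3 UMIs would be 1.39 CPM, and 24 UMIs in extraembryonic ectoderm-like nuclei (1.39 CPM), so no fold is given. Rhobtb3 was at 7.40 and 11.5 CPM, a ratio of 0.643 (0.361 to 1.07).

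The extraembryonic ectoderm-like class held 2 accessibility clusters that differed in these genes. In the cluster of 681 nuclei Ascl2 was at 41.3, Gjb5 at 102, Plac1 at 9.55 and Vgll1 at 4.14 CPM. The cluster of 534 nuclei had 6.16, 66.7, 3.72 and 1.03 CPM of the same genes. The unnamed trophoblast cluster of 252 nuclei lay near the first of these for Gjb5, at 101 CPM (89.1 to 114), and for Ascl2, at 37.1 (29.99 to 45.3), and their order there is within counting error. It lay higher for Plac1, at 46.8 CPM (38.8 to 56.0), but 5 of its 27 nuclei with a Plac1 UMI held 50% of the 120 UMIs and 1 held 25. That nucleus and another with 12 were the 2 nuclei of this cluster rich in Prl3d1, described further on. By RNA 165 (65.5%) of these 252 nuclei were extraembryonic ectoderm-like and 52 (20.6%) cone-like. Outside trophoblast no cluster exceeded 15.2 CPM for Ascl2 or 22.8 CPM for Gjb5, and both maxima fell in the same unnamed cluster of 189 nuclei, with 24 and 36 UMIs. Plac1 reached 81.4 CPM (74.7 to 88.4) in extraembryonic mesoderm-like nuclei, where 31.0% of 606 nuclei had a UMI, and 54.1 CPM (47.1 to 61.9) in haemato-endothelial progenitor-like nuclei. In those 2 classes Ascl2 was at 2.19 and 3.32 CPM, close to its level over all other nuclei.

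**Figure D2:**
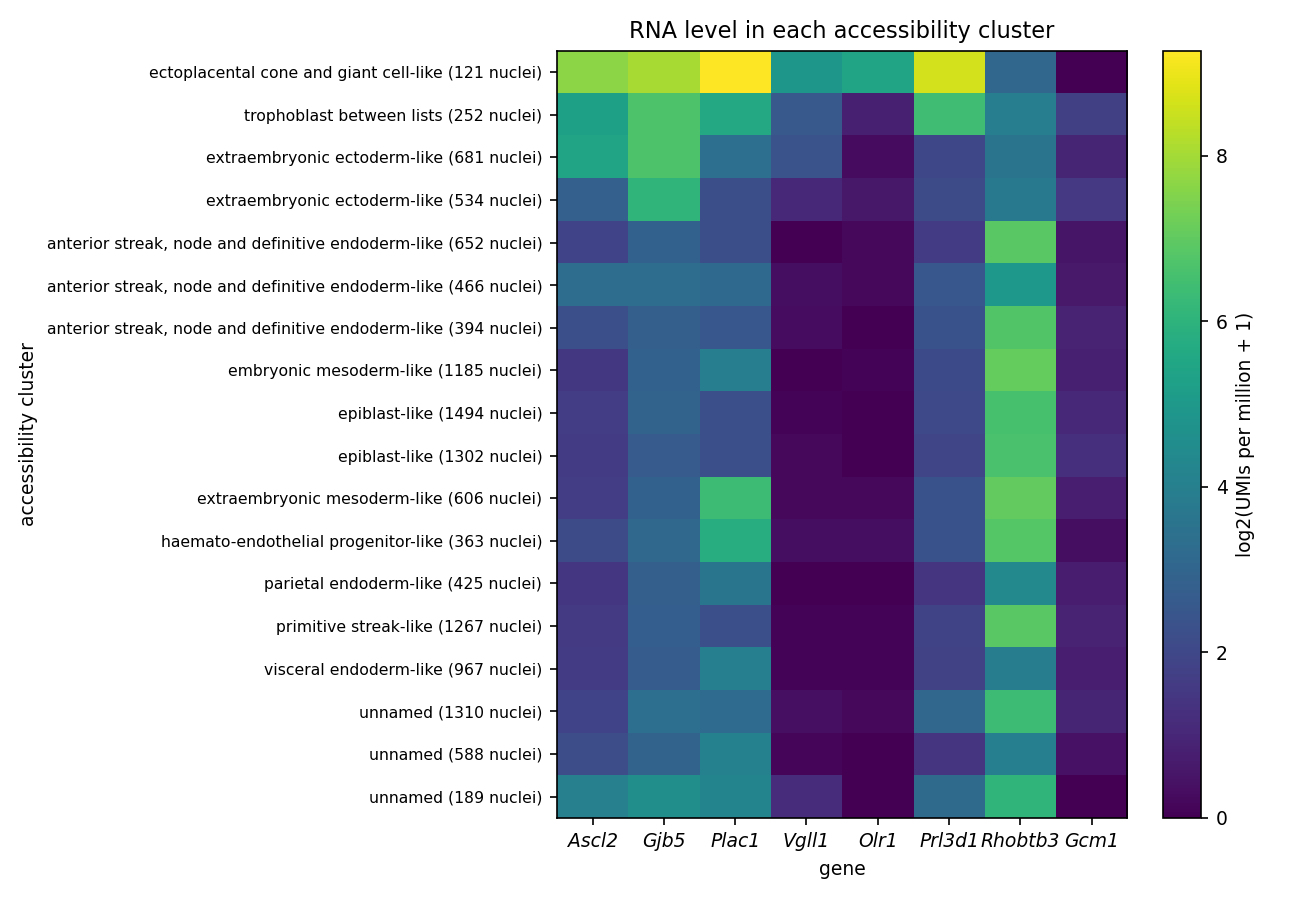
RNA of 8 genes as log2(CPM + 1) in each of 18 accessibility clusters (rows, named by class, with the number of nuclei). Brighter cells are higher. The row of 466 nuclei carries the name of its highest-scoring list, but none of that list's markers was among its 10 leading genes. The cone-like row is brightest for 6 genes, Plac1 is also bright in extraembryonic mesoderm-like nuclei, and Rhobtb3 is brightest outside trophoblast.

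Nuclei placed differently by the 2 assays showed intermediate levels of Ascl2. The gene stood at 9.46 CPM (7.92 to 11.2) in 946 nuclei that were extraembryonic ectoderm-like by both assays. It stood at 103 CPM (91.7 to 115) in the 252 nuclei that were extraembryonic ectoderm-like by accessibility and cone-like by RNA, and at 210 CPM (191 to 231) in 118 nuclei that were cone-like by both. Gjb5 took the values 76.6, 137 and 277 CPM in the same order, and Vgll1 1.14, 10.5 and 29.7. Plac1 stood at 3.63 (2.70 to 4.77), 22.1 (17.1 to 28.2) and 636 CPM, so it too was higher in the middle group than in the first, and most of its RNA was in the third. Olr1 stood at 0.284, 0.680 and 42.6 CPM, and Prl3d1 at 3.20, 3.40 and 416 CPM, so neither was raised in the middle group beyond counting error. Esrrb, a stem cell regulator that also named classes, was at 201, 20.1 and 10.1 CPM in the 3 groups. The first 2 groups share an accessibility class and were split by RNA class. That class was made without the 9 genes but with other genes that vary with them, so these differences in RNA are a description.

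Within the cone-like class the RNA of Plac1, Gjb5 and Ascl2 was spread over most nuclei. Plac1 had a UMI in 116 of 121 nuclei (95.9%), Gjb5 in 109 (90.1%) and Ascl2 in 93 (76.9%), against 8.97%, 6.61% and 2.82% of the other nuclei. Vgll1 was seen in 37 nuclei (30.6%) and Olr1 in 33 (27.3%). The highest single nucleus had 75 UMIs of Plac1, 28 of Ascl2, 26 of Gjb5, 11 of Olr1 and 7 of Vgll1. It took 18 nuclei to hold 50% of the Ascl2 UMIs, 21 each for Gjb5 and Plac1, 10 for Vgll1 and 9 for Olr1. Leaving out Rhobtb3, at least 3 of the other 8 genes were seen together in 98 cone-like nuclei (81.0%), in 18 of 252 unnamed trophoblast nuclei (7.14%), in 53 of 1215 extraembryonic ectoderm-like nuclei (4.36%) and in 19 of 11208 others (0.170%). With each nucleus thinned to 5000 UMIs, which left out 120 trophoblast and 1489 other nuclei, 45.5% (42.9 to 48.1) of trophoblast and 11.1% (10.5 to 11.7) of other nuclei had a UMI of any of those 8. The unthinned shares were 65.3% and 19.9%. A single UMI in a nucleus does not show that it expresses the gene, and the level of free RNA was not measured here.

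Prl3d1 was concentrated in few nuclei. In trophoblast its UMIs fell into 12 nuclei with 18, 23, 32, 46, 74, 92, 95, 98, 140, 147, 150 and 163 UMIs each, and no other trophoblast nucleus had more than 3. The 12 nuclei held 1078 of 1144 trophoblast UMIs (94.2%). Of them 10 were cone-like and 2 in the unnamed trophoblast cluster by accessibility, none was extraembryonic ectoderm-like, and all 12 were cone-like by RNA. One nucleus outside trophoblast also had at least 10, with 12 UMIs. Without these nuclei Prl3d1 stood at 0.959 times (0.728 to 1.25) the level of other nuclei in trophoblast and at 0.795 times (0.248 to 1.97) the extraembryonic ectoderm-like level in cone-like nuclei, so both calls ended and 5 of the 9 genes stayed higher in each comparison. In extraembryonic ectoderm-like nuclei Prl3d1 was at 3.19 CPM, with a UMI in 3.95% of nuclei, against 3.27 CPM and 2.94% in the other nuclei, so it was not above them. The limit of 10 UMIs was chosen after these values were seen.

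These 12 nuclei differed from the other 111 cone-like nuclei in the other members too. Ascl2 had 0 UMIs in the 12, where 3 UMIs would be 12.6 CPM, and 440 UMIs in 93 of the 111 (83.8%), or 223 CPM (203 to 245). Gjb5 had 7 UMIs in 5 of the 12, 29.5 CPM (11.9 to 60.8), and 293 CPM (269 to 317) in the 111. Vgll1 had 0 UMIs against 62 in 37 nuclei, and Olr1 had 2 UMIs in 1 nucleus against 87 in 32. Plac1 alone among them was present throughout, with 5 to 74 UMIs in every one of the 12, 838 CPM (726 to 963), against 595 CPM (561 to 630) in the 111. No Ascl2 UMI was thus seen in the 12 nuclei, while Plac1 was seen on both sides. Ascl2, Gjb5 and Plac1 were seen together in 88 of the 111 (79.3%). Median depth was 17228 UMIs (8876 to 44805) in the 12 and 13310 in the 111.

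**Figure D3:**
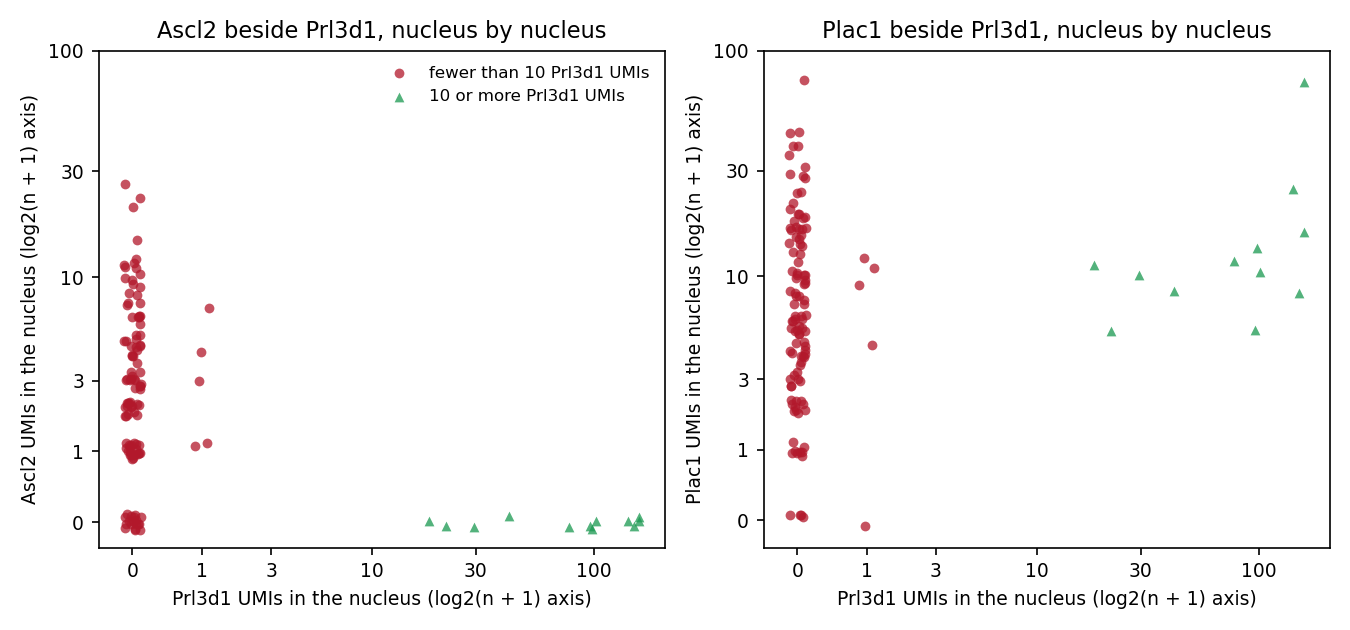
UMIs per nucleus of Ascl2 (left) and Plac1 (right) against Prl3d1 in the 111 other cone-like nuclei (circles) and the 12 nuclei with 10 or more Prl3d1 UMIs (triangles), on log2(n + 1) axes with small random offsets so that equal points can be seen. All 12 triangles lie at 0 for Ascl2 and between 5 and 74 for Plac1.

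The 12 nuclei also carried the close copies Prl3d2 (353 UMIs in 12 nuclei) and Prl3d3 (242 UMIs in 11), between which and Prl3d1 reads could be shared or split, so the 3 levels are uncertain as single genes. Prl7a1 had 101 UMIs in 8 of them, and Adm, which encodes the vessel peptide adrenomedullin and also served as a cone and giant cell marker, had 286 in 12. In the 111 other cone-like nuclei these 4 genes had 3, 1, 2 and 3 UMIs. Hand1, a factor needed for giant cells, stood at 699 CPM (597 to 814) in the 12 and 69.6 CPM (58.4 to 82.2) in the 111. Elf5, a stem cell factor, stood at 16.9 and 119 CPM. Tfap2c, a general trophoblast factor, was at 527 and 763 CPM. Of genes known from endothelium, Cdh5 (556 CPM), Pecam1 (324 CPM) and Esam (177 CPM) were seen in 12, 12 and 11 of the 12 nuclei, whereas Fli1 had 0 UMIs and Kdr 2. The endothelium list of 7 genes summed to 131 CPM in cone-like nuclei, to 39.4 in extraembryonic ectoderm-like and to 30.2 in the other nuclei. Cdh5, Pecam1 and Esam made up most of the sum in cone-like nuclei, at 64.2, 28.7 and 15.7 CPM. The other 4 genes were lower or had few UMIs: Egfl7 was at 18.95 CPM against 30.1 in extraembryonic ectoderm-like and 20.2 in the other nuclei, Plvap had 5 UMIs, Ptprb 2 and Emcn 0. Of the erythroid list, 320 of 326 UMIs in the cone-like class lay in 1 nucleus. Of 8 decidua markers Prl8a2, Hoxa10 and Hoxa11 were at 0 in the cone-like class, and the list summed to 6.47 CPM there and 16.6 CPM in the other nuclei. The part of other cell types in these values was not tested. All genes compared between the 12 and the 111 nuclei, other than members, were chosen after their values were seen.

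Accessibility around the members could be read in the same nuclei. Over the 26 peaks near Ascl2 the 12 nuclei had 6 estimated fragments, 40.8 CPM (14.98 to 88.8), and the 111 had 192, or 133 (115 to 154). Over the 26 peaks near Gjb5 they had 170 (110 to 251) and 375 (344 to 408) CPM. Near Plac1 the values were 88.4 (47.1 to 151) and 104 (88.3 to 122). How often the surroundings of other genes differed as much between these 2 groups was not computed, so the values are a description. The values were 74.8 (37.3 to 134) against 51.4 CPM near Vgll1, and 40.8 against 36.2 near Olr1. No peak lay within 50 kb of the Prl3d1 start.

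With all trophoblast nuclei pooled, promoter accessibility against other nuclei followed the RNA for some members only. In all, 3 of 6 genes with a promoter peak were higher and none lower, while 3.9% of 21614 promoters were called higher and 18.7% lower. Vgll1 stood at 5.20 CPM against 0.907, a ratio of 5.73 (4.17 to 7.86), and 9.38 with 2000 bp to each side. Gjb5 stood at 19.6 against 5.08, a ratio of 3.87 (3.33 to 4.48). Gcm1, whose RNA was not called, stood at 15.02 against 6.40, a ratio of 2.35 (1.999 to 2.74). Of its 2 promoter peaks, chr9:78050250-78051022 upstream of the start had a ratio of 5.49 (4.44 to 6.78), and the other, at the start, was not called. That call ended, at 1.89 to 1.96, with a wider promoter, with doublets kept and under another scaling. Ascl2, 15.4-fold higher in RNA, had a promoter ratio of 1.18 (0.976 to 1.43), and 0.7002 with the promoter taken as 2000 bp to each side, which put it below 1. Plac1 had 0.691 (0.498 to 0.939), below 1 while its RNA was above it. These ratios pool 1128 extraembryonic ectoderm-like and 432 cone-like nuclei by RNA. Of the 1572 trophoblast Plac1 UMIs, 1333 lay in the 121 nuclei that were cone-like by accessibility. By RNA class the Plac1 promoter stood at 7.27 CPM (4.75 to 10.7) in cone-like, 1.85 in extraembryonic ectoderm-like and 4.70 in other nuclei. The Ascl2 promoter stood at 14.3, 7.59 and 7.87 CPM in the same order. For Plac1 the cone-like class was not the highest. Its promoter was at 10.5 CPM (8.39 to 12.9) in extraembryonic mesoderm-like and 10.1 in parietal endoderm-like nuclei. It was at 9.27 in primordial germ cell-like, 8.67 in haemato-endothelial progenitor-like and 8.21 in visceral endoderm-like nuclei, and lower than in cone-like nuclei in the remaining classes. Rhobtb3 had a ratio of 0.701 (0.620 to 0.790), a far smaller difference than in its RNA. Olr1, Prl3d1 and Tpbpa had no promoter peak.

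**Figure D4:**
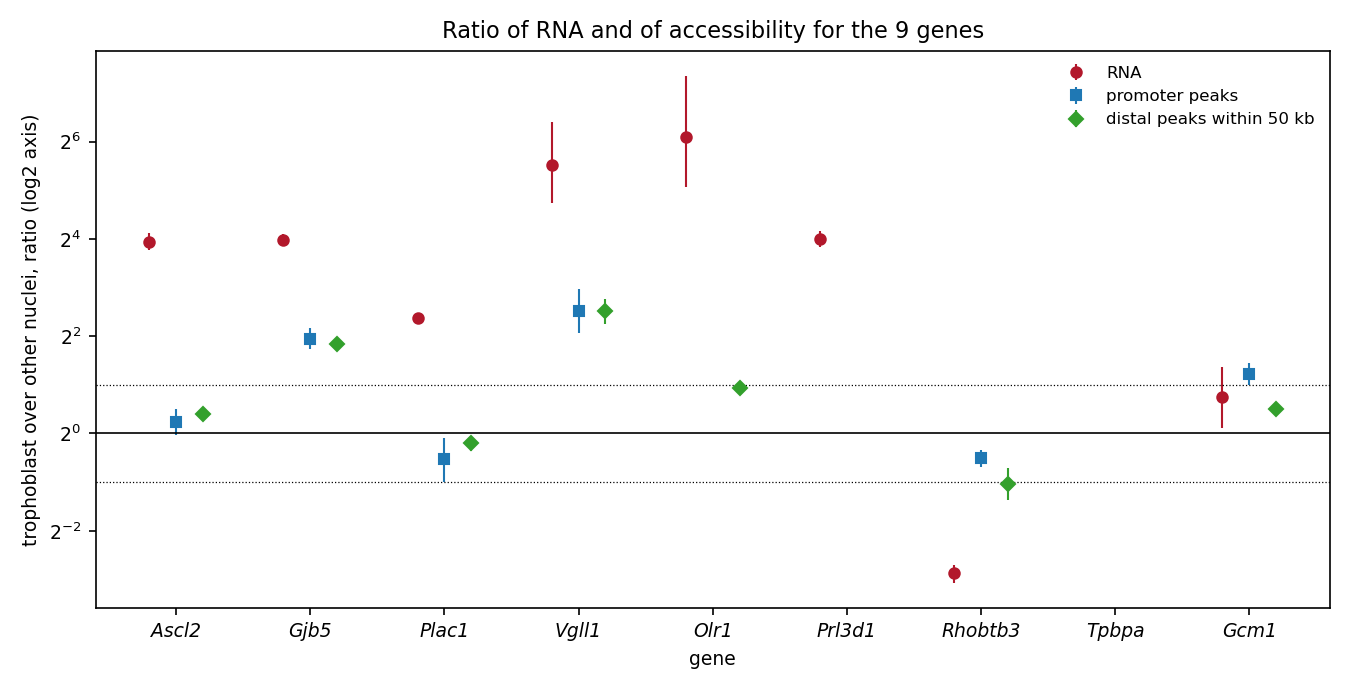
Ratio of trophoblast over other nuclei (log2 axis) for RNA, promoter peaks and distal peaks within 50 kb of each gene, with exact 95% intervals. The solid line marks 1 and dotted lines mark 2-fold in either direction. With all trophoblast nuclei pooled, Ascl2 and Plac1 are above the upper dotted line in RNA and between the lines in both accessibility measures.

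Distal peaks, those at no promoter, were higher in sum for Vgll1, 5.70 (4.75 to 6.83), and Gjb5, 3.58 (3.44 to 3.73; 5.42 within 20 kb), and lower for Rhobtb3, 0.488 (0.386 to 0.610). The call for Rhobtb3 ended with doublets kept (0.526) and with a window of 20 kb (0.574). That made 2 of 7 genes higher and 1 lower, against 7.48% and 18.1% of 29693 genes. Olr1 had a ratio of 1.91 (1.76 to 2.07) over 50 kb and was called at 3.16 (2.85 to 3.50) within 20 kb. By RNA class the Olr1 sum over 50 kb was highest in visceral endoderm-like nuclei, at 69.4 CPM (64.7 to 74.4). It stood at 64.2 in parietal endoderm-like, 62.2 in extraembryonic ectoderm-like and 36.1 in cone-like nuclei. Ascl2, at 1.33, Gcm1, at 1.42, and Plac1, at 0.870, were not called. Of the 131 single peaks 37 were higher and 24 lower, against 11.5% and 36.6% of 229474 peaks. By gene, 14 of 26 peaks near Gjb5, 8 of 26 near Ascl2, 5 of 18 near Gcm1, 4 of 28 near Plac1, 3 of 6 near Vgll1 and 2 of 15 near Olr1 were higher. Lower peaks numbered 8 near Plac1, 7 near Olr1, 4 near Ascl2, 1 each near Gjb5 and Gcm1 and 0 near Vgll1. Near Plac1, Olr1 and Rhobtb3 they outnumbered the higher ones, as they did over all peaks (36.6% against 11.5%). None of 11 near Rhobtb3 was higher and 3 were lower, and the only peak near Tpbpa lay at the promoter of Ctla2b.

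The single peaks named here were among the 3 with the highest ratio of each member, of peaks with at least 50 fragments. Ratios steeper than the sums follow from that choice and are a description. The peak chr4:127344777-127345689, 12.5 kb downstream of the Gjb5 start, had 423 fragments in trophoblast and 75 in other nuclei, 30.5 against 0.701 CPM, a ratio of 43.6 (34.0 to 56.5). The peak chr6:129524728-129525617, 17.6 kb upstream of Olr1, had 438 and 91 fragments, a ratio of 37.2 (29.6 to 47.1). Near Vgll1 the peaks chrX:57090282-57091189 and chrX:57073687-57074541 had ratios of 27.0 (16.3 to 46.9) and 24.1 (16.1 to 37.2). The promoter peak of Vgll1, chrX:57088747-57089616, lay at the second listed start, not at the RefSeq start whose upstream bases are printed above. Near Plac1 the peak chrX:53110333-53111144, 3.39 kb downstream of the inner start, had a ratio of 14.4 (10.1 to 20.7). Near Gcm1 the peak chr9:78044902-78045717 had 8.47 (6.09 to 11.8), and near Ascl2 the peak chr7:142989985-142990659, 20.7 kb upstream, had 7.16 (4.80 to 10.7). Other genes start within 50 kb of every member, so no distal peak can be assigned to a member alone.

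**Figure D5:**
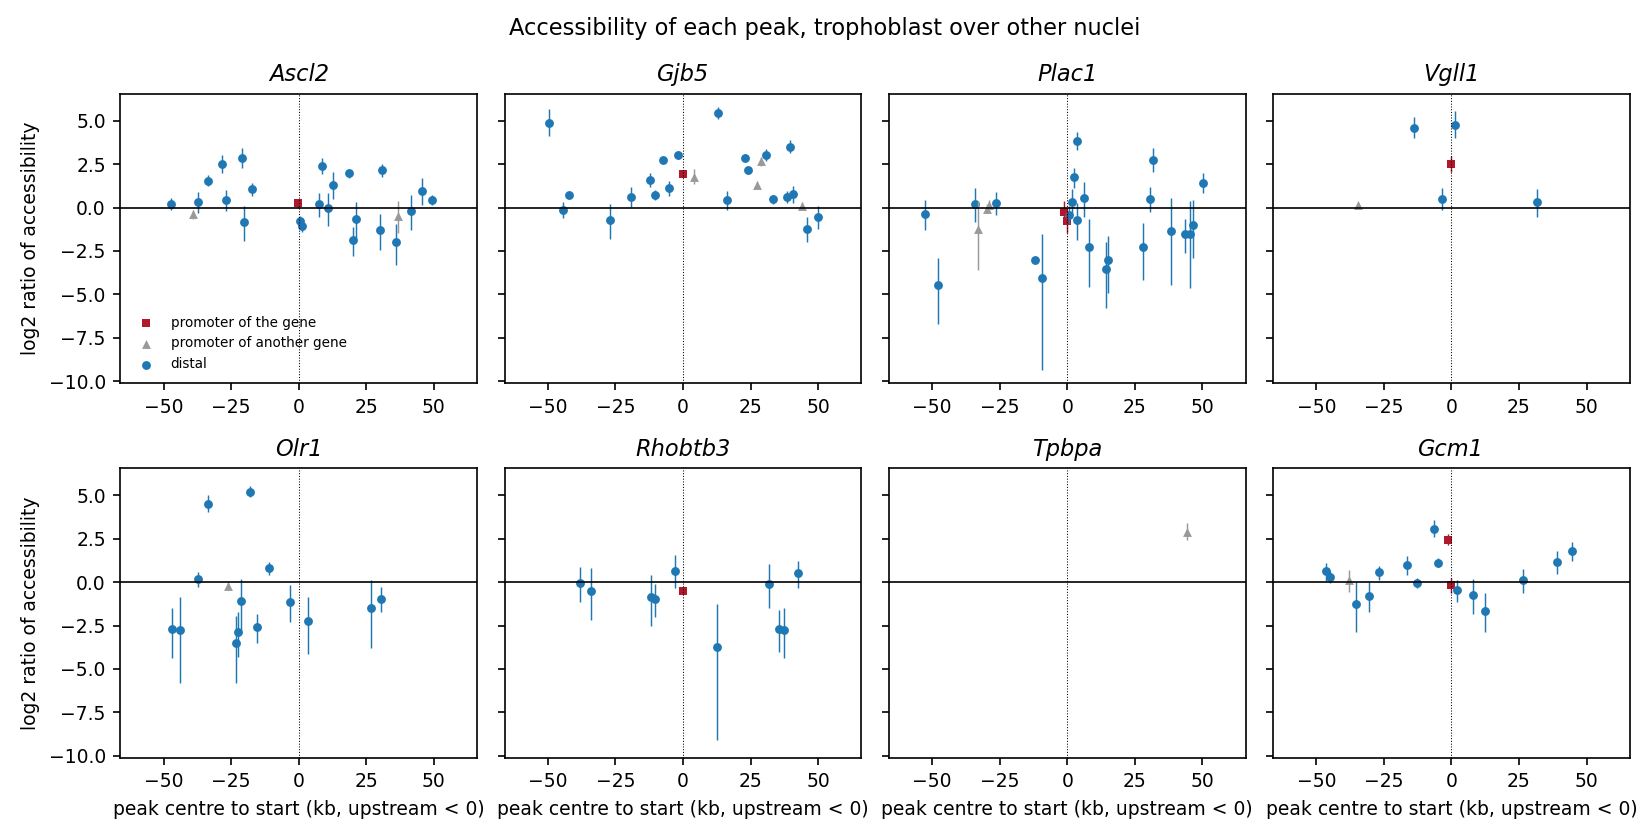
Log2 ratio of accessibility, trophoblast over other nuclei, of peaks near each gene against the distance of the peak centre from the nearest start (kb, upstream below 0), with exact 95% intervals. Squares are promoter peaks of the gene, triangles promoters of other genes and circles distal peaks. Gjb5 has 14 peaks called higher on both sides of its start, Plac1 has 4 called higher and 8 lower, and the highest single values lie near Gjb5, Olr1 and Vgll1.

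Between cone-like and extraembryonic ectoderm-like nuclei (here classed by RNA, 432 and 1128 nuclei) the promoters of Plac1 and Vgll1 were higher and that of Gcm1 lower, against 2.03% and 3.24% of 18409 promoters. Plac1 stood at 7.27 against 1.85 CPM, a ratio of 3.93 (2.09 to 7.51) from 26 and 19 fragments. Vgll1 stood at 11.5 against 3.02, a ratio of 3.80 (2.32 to 6.26). Gcm1 stood at 6.15 against 18.1, 2.94-fold lower (1.89 to 4.81). Its RNA was not called: it had 0 UMIs in the 121 nuclei cone-like by accessibility, where 3 UMIs would be 1.39 CPM. That is also its extraembryonic ectoderm-like level, so the 0 cannot show lower RNA. Ascl2 had a ratio of 1.88 (1.29 to 2.71), Gjb5 1.22 (0.927 to 1.59) and Rhobtb3 0.940 (0.710 to 1.23). In distal sums only Plac1 was called, at 2.06 (1.67 to 2.53), against 1.31% higher and 8.39% lower of 28001 genes. Vgll1, at 0.513 (0.341 to 0.751), and Olr1, at 0.580 (0.476 to 0.702), were below 1. The RNA of both was higher in nuclei that were cone-like by accessibility. Gcm1 (0.763) and Rhobtb3 (0.866) also lay below 1, and Ascl2 (1.11) and Gjb5 (1.12) above it.

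Peaks of one gene moved in opposite directions within trophoblast. Near Vgll1 the promoter peak was higher in cone-like nuclei and the 2 distal peaks named above were lower, at 0.221 (0.0694 to 0.542) and 0.392 (0.195 to 0.719). The leading Gjb5 and Olr1 peaks were also lower in cone-like nuclei, at 0.403 (0.295 to 0.539) and 0.329 (0.236 to 0.448). All peaks named here were chosen for high ratios of pooled trophoblast over other nuclei. Of those 1560 trophoblast nuclei 1128 were extraembryonic ectoderm-like, so the choice favours peaks high in that class. The 432 cone-like nuclei used here are cone-like by RNA. Of them 252 were extraembryonic ectoderm-like by accessibility, so they are not the 121 nuclei in which RNA was read. Near Ascl2, chr7:142989985-142990659 and chr7:142959601-142960424 were higher, 6.28-fold (3.39 to 12.2) and 7.499-fold (4.27 to 13.7). Near Plac1, chrX:53111524-53112454 had 34 fragments in cone-like and 4 in extraembryonic ectoderm-like nuclei, a ratio of 24.4 (8.71 to 94.7). Over all peaks of a gene, 4 were higher and 1 lower near Ascl2, 4 and 0 near Plac1, 1 and 4 near Gjb5, 1 and 2 near Vgll1, 0 and 1 near Olr1 and 0 and 2 near Gcm1, where 6.75% of 92396 peaks were higher and 16% lower.

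Genes with a similar pattern were sought over the 18 accessibility clusters, by Pearson's correlation of log2(CPM + 1), as a description of clusters that share 1 library. Only genes with at least 200 UMIs were candidates, which left out Vgll1 (137 UMIs), Olr1, Gcm1 and Tpbpa. Genes alike to Gjb5 included 3830417A13Rik (0.983) and Procr (0.978), and Vgll1 was most like Ldoc1 (0.970) and Ascl2 (0.969). Among the candidates Ascl2 was most like 3830417A13Rik (0.951), below its value with Vgll1 (0.969), and Plac1 was most like C430049B03Rik (0.888). Genes alike to Olr1 included Ppard (0.919) and Prl3d3 (0.906). Prl3d1 was most like Prl3d2 (0.968), Prl3d3 (0.958) and Adm, and Rhobtb3 like Smo (0.987). Gcm1 was most like Nnt (0.844), a value that rests on 130 Gcm1 UMIs over all clusters, with 0 in the cone-like one. Among the members themselves Plac1 was less like Ascl2 (0.615) and Gjb5 (0.509) than these were like each other (0.926), and Rhobtb3 was opposite to Gjb5 (-0.69).

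Other trophoblast genes, in lists set by function, are given beside the members. Over all genes 7.79% were higher and 23.6% lower in trophoblast, and 6.34% and 7.08% in cone-like over extraembryonic ectoderm-like nuclei. Of the prolactin family 6 of 7 genes tested were higher in trophoblast and 5 of 5 in cone-like over extraembryonic ectoderm-like nuclei, among them Prl3d2, 96.9-fold (63.3 to 155), and Prl7a1, 273-fold (91.0 to 1347). Of the trophoblast UMIs, 353 of 382 for Prl3d2 and 101 of 107 for Prl7a1 lay in the 12 Prl3d1-rich nuclei. Of 11 stem cell and extraembryonic ectoderm regulators 10 were higher in trophoblast, and in cone-like nuclei 2 were higher and 7 lower. Tfap2c was 4.34-fold higher there, while Fgfr2, a receptor that keeps stem cells dividing, was at a ratio of 0.268 and Bmp4 at 0.0720. Of 8 TEAD factors and cofactors tested 3 were higher in trophoblast, and in cone-like nuclei Vgll3 was 28.9-fold higher (19.2 to 44.9) while Tead1, at 0.295, and Tead4, at 0.415, were lower. Of 7 spongiotrophoblast and glycogen cell genes 3 were higher and 3 lower in trophoblast, and 4 of 6 were higher in cone-like nuclei, Cdkn1c 5.24-fold. Of 7 syncytiotrophoblast genes 3 were higher in both comparisons (Pparg, Dlx3 and Cebpa), and Syna and Synb, the fusion proteins, had 0 UMIs in trophoblast. Giant cell regulators and enzymes gave 4 of 5 higher in trophoblast and 2 of 4 in cone-like nuclei (Hand1 and Adm), with Bhlhe40 lower at 0.122. The 111 other cone-like nuclei held 3 of the 196 Adm UMIs of the class, and Hand1 was at 69.6 CPM in them against 42.1 in extraembryonic ectoderm-like nuclei, so both calls rest on the Prl3d1-rich nuclei. Of 3 Rhox genes all 3 were higher in trophoblast, and in cone-like nuclei Rhox6 was higher (2.99-fold) and Rhox5 lower (0.426). Several of these genes (Nrk, Adm, Mmp9, Pparg, Rhox6, Tfap2c, Ets2, Esrrb and others) also named the classes, so their counts are descriptions. Vgll3, Pparg, Dlx3, Cebpa, Syna and Synb were named after their values were seen, and the others as the most abundant of each list in trophoblast.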

How the data were processed

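RNA and chromatin accessibility were measured in the same nuclei of pooled mouse embryos, 1 library per assay. The deposited matrix holds raw counts made by the authors: UMI counts per gene and cut counts per peak. Cell Ranger ARC 2.0.0 and the mm10 build are named per the submitters' processing notes. A nucleus was kept from 1000 UMIs, 500 genes and 1000 cut counts in peaks upwards if mitochondrial UMIs were 20% or less. Scrublet marked 1154 barcodes as doublets, which were left out, and 12796 of 15341 remained. Depth was 145682614 UMIs and 120824686 estimated fragments (cut count divided by 2, rounded up).

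RNA was normalized and 2000 variable genes were chosen with scanpy 1.11.5. From these genes, and from peaks by latent semantic components, 30 components each were computed, and the first accessibility component was left out. Nuclei were clustered with leidenalg 0.10.2 on shared neighbours (15 neighbours, Leiden resolution 1). This was done once by accessibility without peaks near the 9 genes and once by RNA without the 9 genes. Clusters were named from marker lists without members, and the scoring rule for names was set after the data were seen. Members and lists were chosen with earlier results of these data known. A promoter peak overlaps the window from 1000 bp before a start to 100 bp after it. This holds for the members and the other genes with a known strand, 20294 of 32285 in all. For the remaining genes the window was 1000 bp to each side. The genes named are all members, the 3 peaks with the highest ratio per member, the most alike genes by correlation, and up to 4 genes per list, those with most trophoblast UMIs. A few further peaks and the genes of the Prl3d1-rich nuclei were chosen after their values were seen. Intervals are exact at 95% and cover counting error only. All 9 genes matched RefSeq promoters of GRCm38.p6. The ratios, intervals and calls were tested on simulated Poisson counts. These hold no further spread between nuclei, so the test does not cover that spread. Alternatives covered filters, doublets, clustering resolution, scaling, promoter and window widths and thinning depth. Some genes of the lists and of the similar patterns are not reported here.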

Additional observations from a re-analysis of the deposited data

How the results depend on the processing

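Over the alternatives, 265 ratios of single members were recomputed: 233 stayed within the counting interval of the reported value, 30 moved beyond it and 2 that had been called fell below 1, with intervals that include 1. Both were for Prl3d1 without the nuclei with 10 or more of its UMIs, an alternative chosen after seeing the data: 0.959 for trophoblast over other nuclei and 0.795 for cone-like over extraembryonic ectoderm-like nuclei. By its construction this removes 94.2% of trophoblast Prl3d1 UMIs. With a window of 20 kb in place of 50 kb, 21 peaks were higher in place of 37, since only 65 peaks were then tested. The share of nuclei with a UMI of any of 8 members was 33.1% in trophoblast and 6.94% in other nuclei when thinned to 3000 UMIs, and 65.3% and 19.9% unthinned. Median-of-ratios scaling shifted log2 accessibility ratios by 0.259, which left 33 peaks higher and 33 lower, against 9.29% and 44.2% of all 229474 peaks. No paired analysis was possible because each assay had 1 library, and for the same reason no replicate could be left out. The Ascl2 promoter ratio, not called, went from 1.18 to below 1 (0.7002) with a promoter of 2000 bp to each side. Depth limits what can be said of Tpbpa and Gcm1 RNA and of the cone-like promoter values, among others.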
